A study of Mus musculus with 13 samples.

Results

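Mammary organoids grown in collagen I from PyMT tumors were compared with those from normal glands, on 3 arrays for each tissue. Organoids here are multicellular epithelial fragments freed from tissue by mechanical and collagenase/trypsin digestion and spun free of single cells. The members were all arrays of batch 2 whose labels give collagen I, 6 of the 13 samples of the series. The normal group holds wild-type FVB mice A, B and C, with no transgene. The tumor group holds MMTV-PyMT mice A, B and C, in which a mammary tumor virus promoter drives the polyoma middle T antigen in mammary epithelium. Each tumor sample came from the largest tumor of a mouse of 12 to 16 weeks, an age at which the labels describe the carcinomas as poorly differentiated. All cultures were in collagen I (rat tail, 3 mg/ml) with FGF2 (2.5 nM), a growth factor that drives branching, and were collected on day 4. The letters name different animals in the tissues compared, so tumor A and normal A share nothing but a letter. Organoids of the same 2 tissues in Matrigel, which is rich in laminin and stands for basement membrane, on 3 arrays each, gave the comparison in the last paragraphs.

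The mammary duct has a luminal layer, marked by keratins 8 and 18, around which lies a basal layer of contractile myoepithelial cells with keratins 5 and 14, the transcription factor p63 and a smooth muscle apparatus. Some luminal cells carry the estrogen and progesterone receptors and pass hormone signals to their neighbours. In the gland a basement membrane separates the epithelium from collagen I, the main fibrillar collagen of the stroma, which invading carcinoma cells meet. The comparison asks how malignant and normal epithelium differ when both sit in that same collagen.

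Single-colour arrays read the RNA of all cells in a culture together. A level below is the log2 of a gene's processed signal over the 75th percentile of its array, so that 0 is that percentile. A difference is the tumor mean minus the normal mean of these levels, and the number after ± is its standard error in limma. A gene was called where its adjusted p (limma with Benjamini-Hochberg adjustment over 18274 genes) was under 0.05. The 75th percentile itself ran from 690 to 812 on the tumor arrays and from 972 to 1218 on the normal arrays, and 62.1 to 69.1% and 64.3 to 71.4% of spots were well above background. The tumor arrays were more spread: the median standard deviation of a gene was 0.34 in tumor and 0.18 in normal organoids, and arrays of a group correlated across genes at 0.962 to 0.972 and 0.989 to 0.992.

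Of the 18274 genes, 668 were higher and 914 lower in tumor organoids, 8.66% called in all, with 3.66% higher and 5.0% lower. At 2-fold or more these were 482 and 840. The shares of 3.66% and 5.0% are the background for every list count below. The lists were chosen with earlier results of these data known, so a count above these shares describes a list and is no independent test of it. The median difference over all genes was 0.05. The 3 tumor arrays lay wholly above or below the 3 normal arrays for 33.1% of genes, and for 1578 of the 1582 called. One slide held arrays of both groups, tumor C and normal B, and values within the shared slide are the difference between that pair, which is also part of the fit. With slide as a block, which leaves 2 residual degrees of freedom, 193 genes passed by limma, 178 of them among the 1582. Tumor B was alone on its slide, so it has no part in a slide-blocked difference. Slide-blocked values and values within the shared slide both draw on tumor C and normal B, so they are not separate checks. Leaving out 1 array gave 756 calls without normal C, 824 without normal B, 957 without tumor B, and 1072 to 1903 otherwise. Of 151 called genes chosen for naming, 93 kept their call with any 1 array left out, 100 with normexp background correction and 44 with slide as a block. With that block the fibroblast, leukocyte, interstitial matrix, mesenchymal and interferon lists below had no call by limma, and the inflammation and hypoxia lists 1 each. The hormone-sensing list then had 2 lower genes, and the contractile and endothelial lists 5 each. Below, "normal A" or "tumor A" is a collagen I array, and a named gene kept its call with any 1 of the 12 arrays left out unless its loss is given. Losses under the other settings are given for some genes only.

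**Figure D1:**
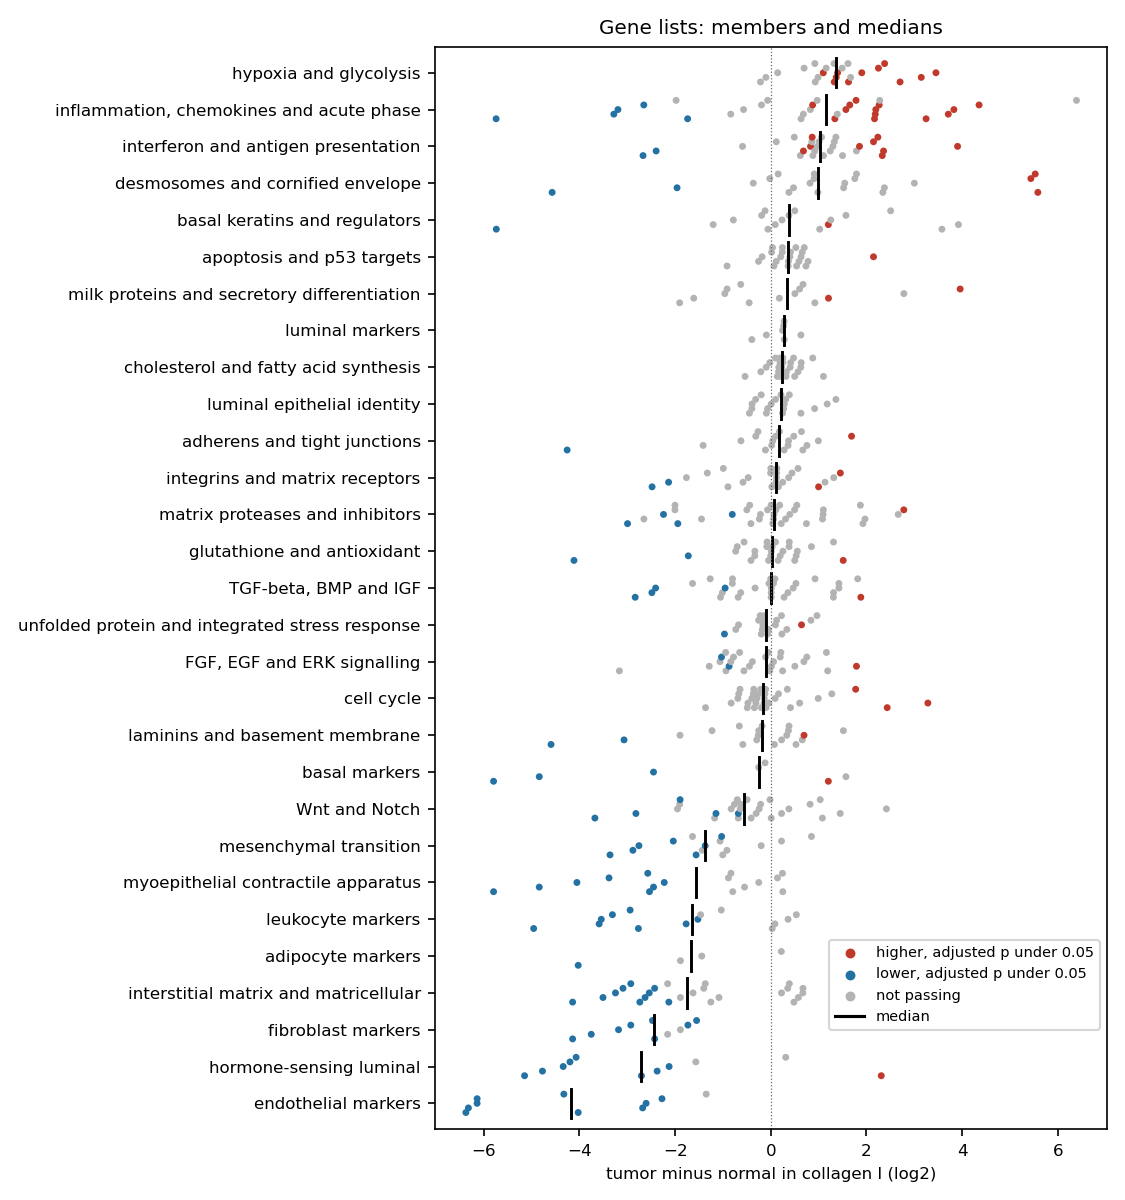
Difference between tumor and normal organoids in collagen I (log2, horizontal axis) for the members of 29 gene lists (rows, ordered by median). Each point is 1 gene, red where higher and blue where lower at adjusted p under 0.05, grey where it did not pass, and the black bar is the list's median: it lies at 1.37 for hypoxia and glycolysis genes, at the top in this fit, and at -4.17 for endothelial markers. Without tumor B, with slide as a block, within the shared slide and with the filter on at least 1 array, desmosome and cornified envelope genes had the higher median (1.73, 1.50, 2.52 and 1.53). Apart from the filter, these settings give tumor B no part in the difference.

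Neither luminal keratin was called. Krt8 was at 8.13, 8.37 and 7.87 in tumor A, B and C and at 7.98, 7.79 and 7.75 in normal A, B and C, a difference of 0.28 ± 0.23 (limma adjusted p = 0.515). Krt18 differed by 0.27 ± 0.19 (limma adjusted p = 0.432) and Cdh1, the adherens junction protein E-cadherin, by 0.28 ± 0.46 (limma adjusted p = 0.768), with tumor B the highest of the 6 arrays at 2.42 and tumor A the lowest at 0.89. None of the 19 genes of luminal identity was called by limma. Their median was 0.21, and -0.04 with quantile normalization, so its direction depended on the scaling. The 7 luminal markers among them had a summed signal of 612 to 769 times the 75th percentile in tumor and 562 to 662 in normal organoids. Markers of the luminal epithelium were thus high on all 6 arrays.

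The basal keratins were high on all 6 arrays as well, and neither passed. Krt5 was at 6.08, 6.88 and 7.34 in tumor A, B and C and at 6.80, 6.88 and 6.98 in the normal arrays (-0.12 ± 0.63, limma adjusted p = 0.934), and the groups overlap. Krt14 was at 7.28, 7.63 and 8.75 in tumor and 6.31, 6.43 and 6.20 in normal organoids (1.57 ± 0.75, limma adjusted p = 0.242): all 3 tumor arrays were above all 3 normal ones, tumor C by the most, without a call. Trp63, which encodes p63, the factor that keeps stratified and basal epithelium in its state, rose by 1.20 ± 0.32 (limma adjusted p = 0.0402). Trp63 lost its call without any normal array, tumor B or C, the normal B array in Matrigel or the tumor A array in Matrigel (limma adjusted p = 0.0565 to 0.133). Its call was also lost with quantile normalization, normexp background correction, the authors' values and a fit of the collagen I arrays alone. Of the 17 basal keratins and regulators, Trp63 was the 1 called higher and Lgr5 the 1 called lower, with a median of 0.38. Without tumor A 4 were higher, without the normal D array in Matrigel 3, and without any normal collagen I array, tumor B, tumor C or the normal B array in Matrigel none was. Lgr5, a receptor for R-spondins found on some mammary stem cells, was at -3.35, -7.15 and -6.74 in tumor and -0.38, 0.09 and 0.26 in normal organoids (-5.74 ± 0.84, limma adjusted p = 0.00173), and its probe was well above background on 1 of the 3 tumor arrays.

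Contractile genes of the same basal layer fell. Of 16, 8 were lower and 0 higher, against 5.0% lower among all genes, and the median was -1.56 (-1.63 with slide blocked, -1.90 within the shared slide). Cnn1 (calponin) was at -0.28, -0.08 and -0.51 in tumor A, B and C and at 4.67, 4.27 and 4.71 in the normal arrays, and fell by 4.84 ± 0.29 on the log2 scale (limma adjusted p = 1.4e-05). Myh11, the smooth muscle myosin heavy chain, was at -3.03, -4.65 and -2.85 and 2.10, 2.10 and 2.65 (-5.79 ± 0.46, limma adjusted p = 3.47e-05). Every tumor array was thus several log2 units under every normal array for both. Mylk, the kinase that activates smooth muscle myosin, was at -4.05 ± 0.37 (limma adjusted p = 6.89e-05), Myl9, a myosin light chain, at -2.57 ± 0.48 (limma adjusted p = 0.00782) and the filament protein synemin (Synm) at -2.23 ± 0.24 (limma adjusted p = 0.000228). Tagln (transgelin), which binds smooth muscle actin, was at -3.38 ± 0.71 (limma adjusted p = 0.0147), the filament protein desmin (Des) at -2.54 ± 0.51 (limma adjusted p = 0.0118) and the oxytocin receptor Oxtr, through which milk ejection is triggered, at -2.45 ± 0.53 (limma adjusted p = 0.0159). Tagln lost its call without normal A or C (limma adjusted p = 0.0523 to 0.0588). Des lost its call without normal B or C (limma adjusted p = 0.0555 to 0.0568). Its call was also lost with normexp background correction and with slide as a block, and over the alternatives it was as small as -0.62. Oxtr lost its call without normal B or C (limma adjusted p = 0.0538 to 0.0688). Synm was named after its values were seen. Without normal C the list had 5 calls. Members that did not pass include Tpm1 at 0.14, Cnn2 at 0.25 and Actg2 at -0.89.

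Acta2, smooth muscle actin, read differently on its probes. The probe that represents it in the fit, the brightest, stood at 4.02, 4.35 and 3.99 in tumor and 4.34, 4.39 and 4.39 in normal organoids (-0.25 ± 0.17, limma adjusted p = 0.428). Both other probes of its RefSeq transcript were lower in tumor organoids, by -4.34 ± 0.37 and -4.83 ± 0.41 (adjusted p over all probes by limma of 5.52e-05 and 5.29e-05). One of these was at 2.63, 2.28 and 1.30 in tumor A, B and C and at 6.39, 6.24 and 6.61 in the normal arrays. It was thus brighter than the probe of the fit on every normal array, and had the same pattern as Cnn1. With each gene's probes averaged, the median of the contractile list was -2.38.

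The serum response factor binds a CArG box in front of many smooth muscle genes, so the promoters of the contractile list were searched for it. RefSeq windows from 250 bases before to 50 after the start (GRCm38.p6) were given for 13 of its 16 members. A perfect CArG box, on either strand, lay in 2 of the 13, Cnn2 and Myl9, and in 1.81% of all 27025 genes with a window. Myl9 is shown because it was called lower and holds the box, which is in capitals and starts 161 bases before the start of the gene on the plus strand, at chr2:156775214-156775513:
Myl9: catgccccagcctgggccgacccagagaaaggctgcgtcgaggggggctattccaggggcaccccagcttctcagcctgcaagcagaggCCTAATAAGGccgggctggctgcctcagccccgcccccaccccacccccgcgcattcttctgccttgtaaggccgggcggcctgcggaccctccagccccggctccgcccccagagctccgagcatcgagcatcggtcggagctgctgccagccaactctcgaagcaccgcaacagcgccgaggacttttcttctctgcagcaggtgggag
The match is a description of the letters, and the other 11 windows say nothing of more distant boxes.

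Genes of hormone-sensing luminal cells fell, while no gene of luminal identity was called. Of 11 genes tested 8 were lower and 1 higher, against 5.0% and 3.66% of all genes. With slide as a block 2 were lower and 0 higher. The median was -2.70 (-2.53 with slide blocked, -2.89 within the shared slide). Tbx3, a transcription factor of mammary development, was at -3.29, -3.88 and -2.43 in tumor A, B and C and at 2.02, 1.59 and 2.23 in the normal arrays (-5.15 ± 0.40, limma adjusted p = 3.47e-05). Foxa1, which opens chromatin for the estrogen receptor, was at -2.73, -3.60 and -6.54 and 0.07, -0.39 and 0.05 (-4.20 ± 0.75, limma adjusted p = 0.00576), lowest in tumor C, with 2 of the 3 tumor arrays well above background. The estrogen receptor gene Esr1 was at -2.38 ± 0.32 (limma adjusted p = 0.00094) and its target Greb1 at least 8.17-fold lower (limma adjusted p = 7.72e-05). The progesterone receptor gene Pgr was at least 5.64-fold lower (limma adjusted p = 7.92e-05). "At least" marks genes whose level in 1 group has only an upper bound, because no array of it read them well above background. Such a fold is a bound only under the background correction of this fit. Greb1 and Pgr were both well above background on all 3 normal arrays. With normexp background correction both lost their call, and Pgr also with slide as a block. Over the alternatives their differences were as small as -0.81 and -0.56. Msx2, a homeobox factor, was at -4.77 ± 0.57 (limma adjusted p = 0.000435) with 1 tumor array well above background. Areg (amphiregulin), the EGF receptor ligand by which estrogen drives ductal growth, was at -1.47, 0.52 and -0.56 in tumor and 2.32, 1.84 and 2.44 in normal organoids (-2.70 ± 0.58, limma adjusted p = 0.0157), and the prolactin receptor Prlr at -2.12 ± 0.47 (limma adjusted p = 0.0181). Areg lost its call without normal A or C (limma adjusted p = 0.0551 to 0.0673). Prlr lost its call without normal A or C or tumor B (limma adjusted p = 0.0514 to 0.0744).

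The other 3 members were not called lower. Ly6a (Sca1), a surface marker of hormone-sensing and progenitor cells, rose by 2.31 ± 0.55 (limma adjusted p = 0.0256). Ly6a lost its call without any normal array or tumor B or C (limma adjusted p = 0.0747 to 0.0885). The nuclear cofactor Cited1 was at -1.57 and the Wnt ligand Wnt4, a progesterone target, at 0.31, and neither passed. Esr1, Prlr and Ly6a were named after their values were seen.

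**Figure D2:**
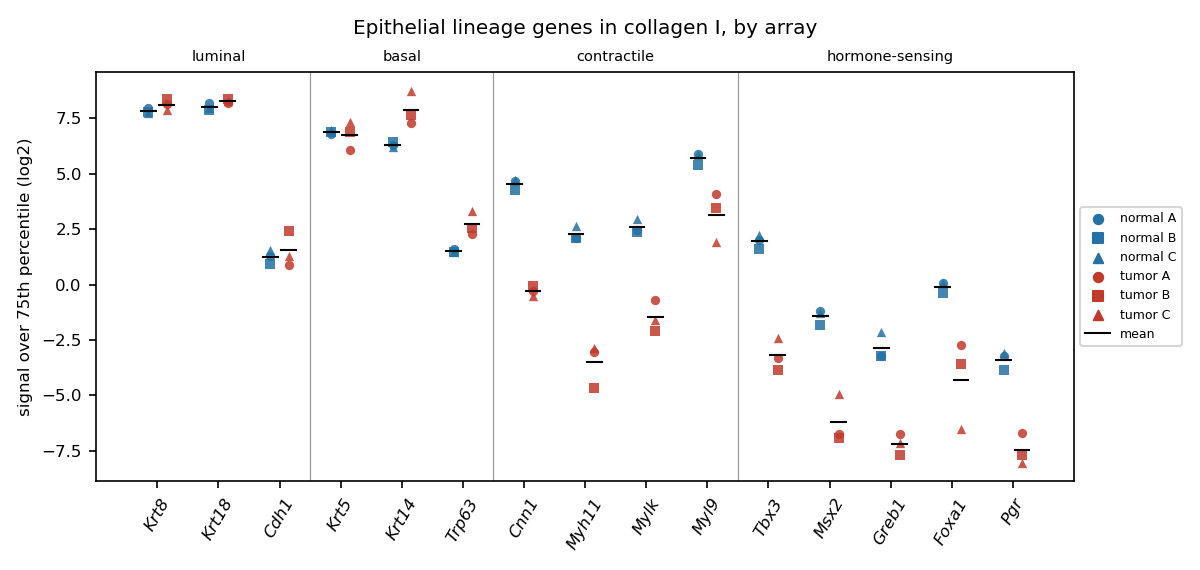
Levels (log2 signal over the array's 75th percentile, vertical axis) of 15 epithelial lineage genes in each normal (blue) and tumor (red) collagen I array, with circles, squares and triangles for mice A, B and C and bars for group means. The tumor arrays lie under the normal arrays for all contractile and hormone-sensing genes shown, while Krt8, Krt18, Cdh1 and Krt5 overlap between the tissues.

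Milk genes showed no common direction. Of 14, 2 were higher and 0 lower, and their median was 0.34, -0.09 without tumor A, 0.22 without normal A and -0.92 within the shared slide. Ltf (lactoferrin), an iron-binding defence protein of milk, was at 3.72, 4.95 and 1.25 in tumor and -0.37, -0.89 and -0.69 in normal organoids (3.96 ± 0.76, limma adjusted p = 0.00872), lowest of the tumor arrays in C. Plin2, the coat protein of lipid droplets, rose by 1.21 ± 0.24 (limma adjusted p = 0.0101). Plin2 lost its call without normal C (limma adjusted p = 0.0525).

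Of the markers of cells other than epithelium, 26 of 38 were lower in tumor organoids, against 5.0% of all genes, and none was higher. Of 10 endothelial markers 9 were lower and 0 higher, and the median was -4.17 (-4.22 with slide blocked, -4.41 within the shared slide). Only 4 of the 10 were well above background on every tumor array. The others entered the fit through another group, so the size of their fall rests on dim tumor signal. The median was -2.64 with the filter on all arrays. Their summed signal ran from 6.39 to 12.3 times the 75th percentile in normal and from 0.37 to 0.61 in tumor organoids. Cldn5, the claudin of endothelial tight junctions, was at -3.75, -5.56 and -5.01 in tumor A, B and C and at 0.96, 1.97 and 1.88 in the normal arrays (-6.37 ± 0.50, limma adjusted p = 3.47e-05). Emcn (endomucin) was at -3.67, -6.20 and -3.89 and 0.98, 1.82 and 1.86 (-6.14 ± 0.62, limma adjusted p = 0.000141). Cdh5 (VE-cadherin) was at -6.32 ± 0.62 (limma adjusted p = 0.000124), Pecam1 at -4.33 ± 0.58 (limma adjusted p = 0.000958) and the VEGF receptor Kdr at -4.03 ± 0.38 (limma adjusted p = 8.83e-05). Tie1, an endothelial receptor kinase, was not well above background on any tumor array and at least 15.2-fold lower (limma adjusted p = 2.09e-05). Normal organoids in collagen I therefore held endothelial RNA that these probes read well above background. The 10th marker, Tek, was at -1.35 and did not pass.

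Fibroblast markers had 8 of 10 lower, 3 without normal B, normal C or tumor B and 4 without tumor C, and the median was -2.45 (-2.11 with slide blocked, -2.48 within the shared slide). Their summed signal was 31.4 to 75.5 in normal and 5.99 to 10.9 in tumor organoids, with normal A the lowest of its group. Col3a1, a fibrillar collagen chain, was at -0.86, -2.04 and -0.83 in tumor and 2.19, 3.04 and 3.47 in normal organoids (-4.14 ± 0.72, limma adjusted p = 0.00504). Pdgfrb, the PDGF receptor of fibroblasts and pericytes, was at -3.18 ± 0.52 (limma adjusted p = 0.00332) and the matrix protein gene Dpt (dermatopontin) at -3.75 ± 0.67 (limma adjusted p = 0.00558). Col14a1, a collagen that sits on fibril surfaces and lies outside the list, had the lowest adjusted p of the named genes. It was at -7.57, -7.65 and -8.07 in tumor and 0.40, 0.15 and 0.82 in normal organoids and at least 81.4-fold lower (limma adjusted p = 1.64e-08).

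Leukocyte markers had 8 of 14 lower, 5 without normal A, 4 without B, 2 without C and 3 without tumor B, and the median was -1.65 (-1.52 with slide blocked, -1.69 within the shared slide). Their summed signal was 43.0 to 66.7 in normal and 4.51 to 8.53 in tumor organoids. C1qa, a complement subunit made by macrophages, was at -3.42, -4.99 and -5.66 in tumor and 0.01, -0.03 and 0.82 in normal organoids (-4.96 ± 0.75, limma adjusted p = 0.00207). Lyz2, the macrophage and neutrophil lysozyme, was at -3.31 ± 0.82 (limma adjusted p = 0.0309) and the leukocyte phosphatase Ptprc (CD45) at -3.59 ± 0.79 (limma adjusted p = 0.018). Lyz2 lost its call without any normal array or tumor B or C (limma adjusted p = 0.0747 to 0.117). Ptprc lost its call without normal B or C or tumor B (limma adjusted p = 0.063 to 0.0794). Its call was also lost with normexp background correction and with slide as a block, and over the alternatives it was as small as -0.50. The macrophage marker Cd68 was at 0.09 and did not pass. Of 4 adipocyte markers Fabp4, a fatty acid carrier also found in capillaries, was the 1 called (-4.03 ± 0.46, limma adjusted p = 0.000325).

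In these bulk arrays, fewer cells of a type and less RNA of that type per cell cannot be told apart. With normexp background correction, which pulls dim probes toward one another, 6 endothelial, 4 fibroblast and 5 leukocyte markers were lower, with medians of -1.82, -1.91 and -0.62.

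**Figure D3:**
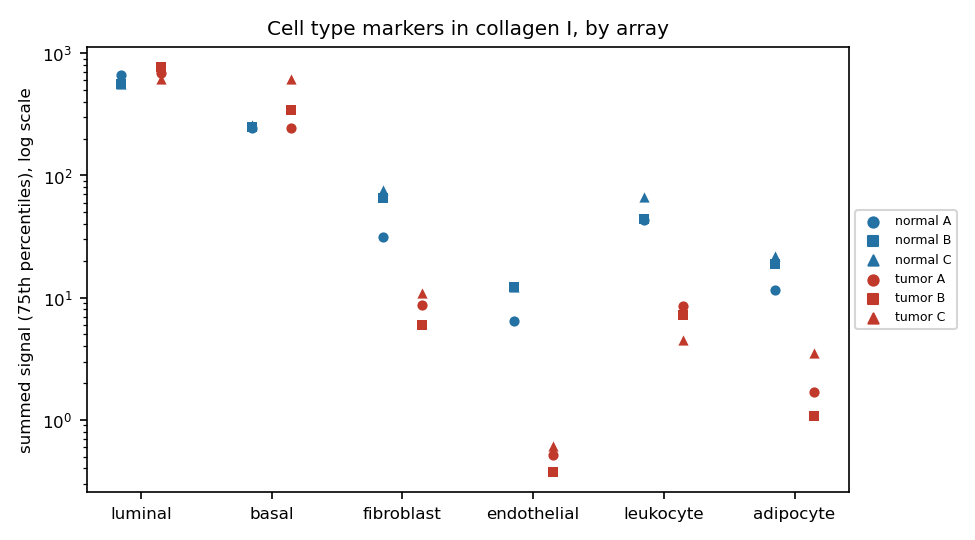
Summed signal of each cell type's markers (in units of the array's 75th percentile, log scale) in each collagen I array, normal in blue and tumor in red, with circles, squares and triangles for mice A, B and C. Luminal markers lie at 562 to 769 in all 6 arrays, while fibroblast, endothelial, leukocyte and adipocyte sums of every tumor array lie under those of every normal array.

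Genes of the interstitial matrix moved with the fibroblast markers, and 5 of these genes are in both lists. Of 24, 10 were lower and 0 higher, against 5.0% lower among all genes. The count of lower genes was 6 without normal C. The median was -1.76 (-1.38 with slide blocked, -1.72 within the shared slide). Fbn1 (fibrillin, the core of elastic microfibrils) was at -3.93, -4.70 and -3.83 in tumor and -1.13, -0.64 and -0.17 in normal organoids (-3.51 ± 0.41, limma adjusted p = 0.00042). Its partner Mfap5 was at -3.25 ± 0.61 (limma adjusted p = 0.00747) and the collagen VI chain Col6a1 at -3.09 ± 0.51 (limma adjusted p = 0.00336). Over the alternatives Mfap5 was as small as -0.49, and its call was lost with normexp background correction and with slide as a block. Col1a2, a chain of collagen I itself, was at 1.71, 0.98 and 2.09 and 3.79, 4.79 and 4.97 (-2.93 ± 0.64, limma adjusted p = 0.0171), a gene of the mouse cells, apart from the rat protein of the gel. Col1a2 lost its call without normal B or C or tumor B (limma adjusted p = 0.0697 to 0.0767). The matricellular genes Tnc, Spp1, Thbs1 and Ccn2 were at 0.35, 0.48, 0.58 and 0.39, and none of them passed. The part of the fibroblast RNA in this difference was not tested.

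Genes of the mesenchymal transition, by which epithelial cells take on a fibroblast-like state, were lower where they passed. Of 15, 7 were lower and 0 higher, against 5.0% lower among all genes. The count of lower genes was 4 without normal A, tumor B or the tumor A array in Matrigel and 3 without normal B or C. With normexp background correction it was 1, and Zeb1, Zeb2 and Cdh2 lost their call there and with slide as a block. The median was -1.37 (-1.24 with slide blocked, -1.19 within the shared slide). Zeb1 and Zeb2, repressors of E-cadherin, were at -2.76 ± 0.42 and -3.36 ± 0.54 (limma adjusted p = 0.00215 and 0.00305), and Cdh2 (N-cadherin) was at -2.88 ± 0.48 (limma adjusted p = 0.0038). Vim (vimentin) was at 3.38, 4.10 and 2.72 in tumor and 4.64, 5.20 and 5.26 in normal organoids (-1.64 ± 0.55, limma adjusted p = 0.0959) and Fn1 (fibronectin) at -1.06 ± 0.31 (limma adjusted p = 0.061), and neither passed. The transition factors Snai1, Snai2 and Twist1 were at -0.20, 0.85 and 0.22 without a call. Fibroblasts express these genes too, and their markers were lower by the values given above. The part of the fibroblast RNA in the differences of this list was not tested.

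Basement membrane genes divided by member. Nid2, a nidogen that links laminin to collagen IV, was at -4.59 ± 0.65 (limma adjusted p = 0.00135) and the laminin chain Lama1 at -3.07 ± 0.46 (limma adjusted p = 0.00195), with 1 and 2 tumor arrays well above background. The laminin chain Lama4 rose by 0.69 ± 0.17 (limma adjusted p = 0.0335). Lama4 lost its call without any normal array, tumor B or C or the normal B array in Matrigel (limma adjusted p = 0.0574 to 0.129). The other 16 genes of the list did not pass. Its median was -0.18, but 0.09 both with slide as a block and without tumor A.

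Of 34 matrix proteases and inhibitors 1 was higher and 4 lower, beside the same 3.66% and 5.0%. Without tumor A 5 were higher, without any normal array, tumor B or tumor C none was, and without normal C 1 was lower. Their median was 0.06, and -0.07 without tumor B. Mmp13, a collagenase that cuts fibrillar collagen, was at 2.16, 2.64 and 5.03 in tumor and -0.37, 0.93 and 0.94 in normal organoids (2.78 ± 0.70, limma adjusted p = 0.0341), highest in tumor C. Mmp23 was at -2.24 ± 0.22 (limma adjusted p = 0.000118) and Timp1, an inhibitor of these proteases, at -1.94 ± 0.42 (limma adjusted p = 0.0157). Mmp14, the membrane-bound collagenase, was at 4.67, 4.73 and 4.79 in tumor and 5.41, 5.48 and 5.72 in normal organoids (-0.81 ± 0.22, limma adjusted p = 0.0483), lower on all 3 tumor arrays than on any normal array. Mmp13 lost its call without any normal array or tumor B or C (limma adjusted p = 0.056 to 0.125). Timp1 lost its call without normal B or C or tumor B (limma adjusted p = 0.0637 to 0.0728). Mmp14 lost its call without any collagen I array, the normal B or D array in Matrigel or the tumor B array in Matrigel (limma adjusted p = 0.0547 to 0.183).

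Of 24 integrins and matrix receptors 2 were higher and 2 lower, beside 3.66% and 5.0% of all genes (median 0.11, and -0.14 without tumor C). Without normal C none was higher, and without tumor C 4 were lower. Itga3 and Itgb4, subunits of laminin receptors, rose by 1.45 ± 0.29 and 1.00 ± 0.24 (limma adjusted p = 0.0103 and 0.0273). Itga8, whose receptor binds nephronectin and fibronectin, was at 2.53, 1.84 and 1.26 in tumor and 4.10, 3.88 and 4.07 in normal organoids (-2.14 ± 0.30, limma adjusted p = 0.00147), and Itga9 at -2.48 ± 0.53 (limma adjusted p = 0.0158). Itga2, the collagen-binding subunit, was at -4.99, -5.20 and -4.01 and -4.84, -4.99 and -4.69 (0.11 ± 0.30, limma adjusted p = 0.872), so the groups overlap. Itga3 lost its call without normal C (limma adjusted p = 0.0513). Itgb4 lost its call without any normal array or tumor B or C (limma adjusted p = 0.0831 to 0.0967). Itga9 lost its call without normal B or C (limma adjusted p = 0.0569 to 0.0672).

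Of 19 genes of adherens and tight junctions, Cldn1 rose by 1.69 ± 0.28 (limma adjusted p = 0.00407) and Cldn10 was at -2.48, -3.71 and -3.23 in tumor and 1.39, 0.88 and 1.09 in normal organoids (-4.26 ± 0.34, limma adjusted p = 3.47e-05). Both encode claudins, which set the permeability of tight junctions. The list's median was 0.18. Outside it, Cldn6, a claudin of embryonic epithelium, was not well above background in tumor organoids and at least 28.8-fold lower (limma adjusted p = 0.000469).

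Some genes of keratinizing, epidermis-like epithelium were among the largest differences, while most of that list did not pass: of 21 genes of desmosomes and the cornified envelope 3 were higher and 2 lower. Krt16, a keratin that skin makes when wounded, was at 3.64, 4.74 and 8.08 in tumor A, B and C and at -0.36, 0.42 and -0.18 in the normal arrays (5.53 ± 1.09, limma adjusted p = 0.0103). Klk6, a kallikrein protease, was at 1.37, 2.42 and 3.90 and -3.71, -3.06 and -3.70 (6.05 ± 0.68, limma adjusted p = 0.000284). For both genes all tumor arrays were above all normal ones, and tumor C was the highest.

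Several further genes, named for the size of their difference, were far higher in tumor C than in the other tumor arrays. Crct1, of the cornified envelope region, was at 0.80, -0.41 and 6.21 in tumor and -4.82, -4.14 and -4.81 in normal organoids (6.79 ± 1.55, limma adjusted p = 0.021). Klk7, which cuts the junctions of shed skin cells, was at -0.37, -0.91 and 4.55 and -4.70, -4.75 and -3.96 (5.56 ± 1.46, limma adjusted p = 0.04). Krtdap, a keratinocyte differentiation protein, differed by 5.58 ± 1.50 (limma adjusted p = 0.0431), well above background on all tumor arrays and 1 normal array. Sprr1b, an envelope precursor, was at least 14.8-fold higher (limma adjusted p = 0.021) and Spink12, a protease inhibitor, at least 98.4-fold (limma adjusted p = 0.0202), at 0.20, -4.10 and 4.93 in tumor A, B and C. Tumor C was the highest tumor array for all 5. Crct1 lost its call without any normal array (limma adjusted p = 0.0613 to 0.0768). Klk7 lost its call without any normal array, tumor C or the normal D array in Matrigel (limma adjusted p = 0.051 to 0.122). Krtdap lost its call without any normal array, tumor B or C, the normal B array in Matrigel or the tumor B array in Matrigel (limma adjusted p = 0.0514 to 0.134). Sprr1b lost its call without any normal array (limma adjusted p = 0.0534 to 0.0789). Spink12 lost its call without any normal array (limma adjusted p = 0.058 to 0.0733).

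The 3 higher members of that list were Krt16, Krtdap and Sprr1b. Without any single normal array 1 was higher, without tumor A 5, and without normal B, normal C or tumor B none was lower by limma. The median was 0.99, 0.52 without tumor C, 1.73 without tumor B, 1.50 with slide as a block and 2.52 within the shared slide, which holds tumor C. The 2 lower members, Ivl (involucrin) at -4.57 ± 1.14 and Lor (loricrin) at -1.96 ± 0.44 (limma adjusted p = 0.0321 and 0.0192), are envelope proteins of late keratinocyte differentiation. Ivl lost its call without any normal array or tumor A or B (limma adjusted p = 0.0616 to 0.108). Lor lost its call without normal B or C or tumor B (limma adjusted p = 0.0632 to 0.0887). Of the 668 genes called higher, tumor C was the tumor array farthest from the normal mean for 316, B for 257 and A for 95, and of the 914 called lower for 396, 341 and 177.

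**Figure D4:**
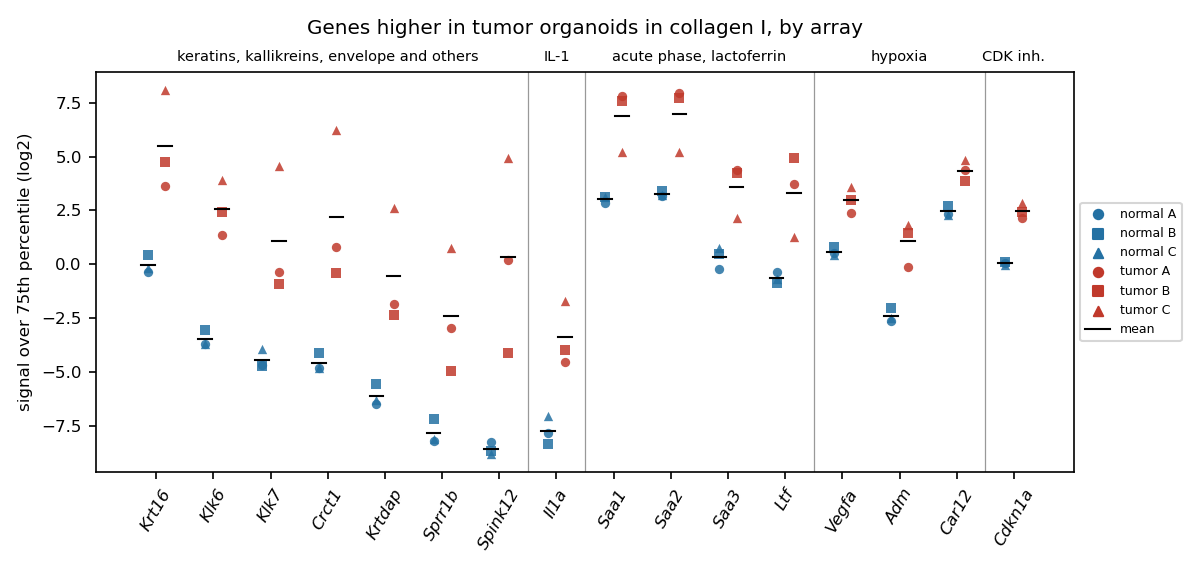
Levels (log2 signal over the array's 75th percentile, vertical axis) of 16 genes called higher in tumor organoids, in each normal (blue) and tumor (red) collagen I array, with circles, squares and triangles for mice A, B and C and bars for group means. Tumor C is the highest array for Krt16, Klk6, Klk7, Crct1, Krtdap, Sprr1b, Spink12 and Il1a and the lowest tumor array for Saa1, Saa2, Saa3 and Ltf.

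Inflammatory genes rose on balance while some chemokines fell. Of 30, 13 were higher and 5 lower, against 3.66% and 5.0% of all genes, and the median was 1.15 (1.07 with slide blocked, 1.31 within the shared slide). The acute-phase genes Saa1 and Saa2 (serum amyloid A) were at 7.82, 7.58 and 5.20 and 7.97, 7.71 and 5.23 in tumor A, B and C. In the normal arrays they were at 2.85, 3.13 and 3.14 and 3.17, 3.38 and 3.23, for differences of 3.83 ± 0.76 and 3.71 ± 0.77 (limma adjusted p = 0.0103 and 0.0133). These near-identical genes may share signal on their probes. Saa3 was at 4.38, 4.23 and 2.15 in tumor organoids (3.25 ± 0.67, limma adjusted p = 0.013). In all of them tumor C was the lowest tumor array and still above every normal one. Saa2 lost its call without normal C or tumor B (limma adjusted p = 0.052 to 0.0579). Saa3 lost its call without normal A or tumor B (limma adjusted p = 0.0549 to 0.0566).

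Il1a, the interleukin-1 alpha that epithelia hold ready, was not well above background in normal organoids and at least 7.39-fold higher (limma adjusted p = 0.0029), and Il1f6, an interleukin-1 family member of skin, at least 9.04-fold (limma adjusted p = 0.00631). Il1rn, which blocks their receptor, rose by 2.17 ± 0.29 (limma adjusted p = 0.00103) and Tnf by 2.18 ± 0.33 (limma adjusted p = 0.0022). The neutrophil chemokines Cxcl5 and Cxcl2 rose by 2.19 ± 0.28 and 1.78 ± 0.24 (limma adjusted p = 0.000778 and 0.0011), and C3, the central complement protein, by 1.65 ± 0.23 (limma adjusted p = 0.00141). These last 5 genes were named after their values were seen. S100a9 had the largest difference of the list, 6.39, without a call.

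Lower were Cxcl15 at -5.74 ± 0.65 (limma adjusted p = 0.000325), a chemokine of mucosal glands, well above background on 1 tumor array, and Il33, an alarm cytokine, at -2.61, -3.41 and -0.76 in tumor and 1.21, 0.96 and 0.90 in normal organoids (-3.28 ± 0.87, limma adjusted p = 0.0406). The count of lower genes was 2 without normal B or C and 3 without normal A or tumor B. The other 3 were the chemokines Cxcl12, Cxcl14 and Ccl7 at -3.19 ± 0.42, -2.65 ± 0.60 and -1.74 ± 0.41 (limma adjusted p = 0.000845, 0.02 and 0.024), named after their values were seen. Il33 lost its call without any normal array, tumor A or B, the normal B or D array in Matrigel or the tumor A array in Matrigel (limma adjusted p = 0.0519 to 0.146). Cxcl14 lost its call without any normal array (limma adjusted p = 0.0572 to 0.0844). Ccl7 lost its call without normal B or C or tumor B or C (limma adjusted p = 0.0681 to 0.103). Beside these inflammatory genes, 8 of 14 leukocyte markers were lower and none higher. The antibacterial Pglyrp1 (3.95 ± 0.59, limma adjusted p = 0.00197), the acute-phase Orm1 (3.70 ± 0.26, limma adjusted p = 2.95e-05) and the chitinase-like Chil3 (4.42 ± 0.47, limma adjusted p = 0.000214), of macrophages and neutrophils, rose outside the list. Chil3 was at 3.86, 5.53 and 4.50 in tumor and -0.36, 0.42 and 0.56 in normal organoids, so no tumor array came near a normal one.

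Interferon-stimulated genes leaned upward with few of them stable. Of 28 genes of interferon and antigen presentation 9 were higher and 2 lower, against 3.66% and 5.0% of all genes. The median was 1.03 (0.96 with slide blocked, 0.75 within the shared slide). Oas2, a sensor of double-stranded RNA, was at 2.33, 1.47 and 0.98 in tumor A, B and C and at -1.49, -3.66 and -1.77 in the normal arrays (3.90 ± 0.64, limma adjusted p = 0.00327). Irf7, the factor that amplifies interferon production, was at 2.98, 2.32 and 1.78 and 0.52, -0.58 and 0.14 (2.33 ± 0.43, limma adjusted p = 0.00738). Isg15, a ubiquitin-like modifier, was at 4.95, 4.46 and 3.74 and 2.89, 1.30 and 2.24 (2.24 ± 0.53, limma adjusted p = 0.0258), and Usp18, which removes it, rose by 2.36 ± 0.54 (limma adjusted p = 0.0214). In each of these genes tumor A was the highest tumor array and normal B the lowest normal one. Isg15 lost its call without normal B or C or tumor A or B (limma adjusted p = 0.0652 to 0.107). Usp18 lost its call without normal B or C or tumor A or B (limma adjusted p = 0.0538 to 0.0888).

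Without tumor B or normal B the list had 2 higher genes, 3 without tumor A or normal C, and 13 without the normal A array in Matrigel. The 2 lower members, Cd74 and H2-Aa, belong to the class II pathway of professional antigen-presenting cells and were at -2.40 ± 0.61 and, as a bound, at least 2.15-fold lower (limma adjusted p = 0.0352 and 0.0347). Cd74 lost its call without any normal array, tumor B or C or the tumor A array in Matrigel (limma adjusted p = 0.052 to 0.147). H2-Aa lost its call without normal B or C or tumor B or C (limma adjusted p = 0.0972 to 0.139). H2-Aa was at 0.11 with normexp background correction. Class I genes were at 1.10 (H2-D1), 0.92 (H2-K1) and 1.01 (B2m) without a call.

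The interferon-stimulated response element holds the letters GAAANNGAAA, and the promoter windows of this list were searched for them on both strands. Of 21 members with a window 8 held them, and 3.99% of all genes did. Among the members called higher with a window these were 2 of 5, and among those not passing 6 of 15. Isg15 is shown as a called member whose window, chr4:156200769-156201068 on the minus strand, holds 3 overlapping matches (capitals), the first 78 bases before the start:
Isg15: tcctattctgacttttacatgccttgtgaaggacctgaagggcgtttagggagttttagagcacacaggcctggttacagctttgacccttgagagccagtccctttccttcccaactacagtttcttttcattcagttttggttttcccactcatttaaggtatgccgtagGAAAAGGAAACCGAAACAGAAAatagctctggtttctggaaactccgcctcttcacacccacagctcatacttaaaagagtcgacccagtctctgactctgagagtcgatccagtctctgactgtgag

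Many hypoxia and glycolysis genes were higher in tumor organoids. Of 23, 11 were higher and 0 lower, against 3.66% higher among all genes. The median was 1.37 (1.29 with slide blocked, 1.53 within the shared slide). Vegfa, the main growth factor of blood vessels, was at 2.37, 2.97 and 3.57 in tumor A, B and C and at 0.52, 0.80 and 0.45 in the normal arrays (2.38 ± 0.43, limma adjusted p = 0.0066). Adm, the vasodilator peptide adrenomedullin, was at -0.11, 1.45 and 1.83 and -2.64, -2.04 and -2.51 (3.45 ± 0.67, limma adjusted p = 0.0092). Car12, a membrane carbonic anhydrase that acidifies the surroundings, rose by 1.90 ± 0.36 (limma adjusted p = 0.00762). All tumor arrays were above all normal ones for these 3 genes.

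Car9, the hypoxia-induced carbonic anhydrase, was at 0.23, 1.27 and 0.77 and -1.96, -1.75 and -2.14 (2.70 ± 0.60, limma adjusted p = 0.0194), Egln3, a prolyl hydroxylase that marks HIF for destruction, rose by 2.25 ± 0.48 (limma adjusted p = 0.015) and Slc16a3, the lactate exporter, by 3.15 ± 0.85 (limma adjusted p = 0.0456). Car9 lost its call without any normal array or tumor B or C (limma adjusted p = 0.0545 to 0.0777). Egln3 lost its call without normal B or C or tumor B (limma adjusted p = 0.0558 to 0.0681). Slc16a3 lost its call without any normal array, tumor B or C, the normal B array in Matrigel or any tumor array in Matrigel (limma adjusted p = 0.0592 to 0.144). The other 5 called members, all enzymes of glucose metabolism, were between 1.10 (Aldoa) and 1.62 (Pfkp), and each lost its call without normal B, normal C or tumor B. Aldoa lost its call without normal B or C or tumor B (limma adjusted p = 0.0637 to 0.0724). Pfkp lost its call without any normal array or tumor B or C (limma adjusted p = 0.0643 to 0.0859). Members without a call were mostly above 0 as well, such as Pgk1 at 1.49, the glucose transporter Slc2a1 at 1.32 and Ldha at 0.70, while Ldhb was at -0.22. The count of higher genes was 3 without normal B, normal C or tumor B, 5 without normal A or tumor C, and 19 and 17 without the normal A and D arrays in Matrigel, which add to the estimate of spread. The median ran from 1.23 to 1.60 over the 12 arrays left out in turn.

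HIF binds the letters ACGTG or GCGTG. On either strand they lay in the windows of 20 of 21 members, called or not, and in 46.7% of all genes. Car9 is shown as a called member with a single match, in capitals 18 bases before the start and on the opposite strand, at chr4:43506776-43507075:
Car9: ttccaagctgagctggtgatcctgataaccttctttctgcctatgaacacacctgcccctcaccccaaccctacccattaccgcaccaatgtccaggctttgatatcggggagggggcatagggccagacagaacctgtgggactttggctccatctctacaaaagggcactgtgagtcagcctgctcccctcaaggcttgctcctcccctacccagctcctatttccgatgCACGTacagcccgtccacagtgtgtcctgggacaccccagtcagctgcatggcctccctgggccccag

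Of 32 cell cycle genes 3 were higher and 0 lower, beside 3.66% and 5.0% of all genes. Without tumor A 2 were lower. All 3 encode inhibitors of cyclin-dependent kinases, of which Cdkn1a alone kept its call with any 1 array left out. Cdkn1a (p21) was at 2.16, 2.42 and 2.83 in tumor and 0.07, 0.08 and -0.04 in normal organoids (2.43 ± 0.31, limma adjusted p = 0.000648). Cdkn2a, which encodes p16 and ARF, was at -0.86, -0.88 and -2.35 and -4.20, -4.52 and -5.22 (3.28 ± 0.82, limma adjusted p = 0.0331) and Cdkn1c (p57) rose by 1.77 ± 0.48 (limma adjusted p = 0.0447). Mki67, a marker of cycling cells, was at 3.67, 1.98 and 1.82 and 3.56, 3.11 and 3.29 (-0.83 ± 0.40, limma adjusted p = 0.249), with tumor A above every normal array and B and C below. The list had 1 higher gene without any normal array or tumor B, and its median was -0.17, 0.15 without tumor C and -0.52 with slide as a block. Cdkn2a lost its call without any normal array or tumor A or B (limma adjusted p = 0.0691 to 0.13). Cdkn1c lost its call without any normal array, tumor B or C, any normal array in Matrigel or the tumor A array in Matrigel (limma adjusted p = 0.0517 to 0.149). Of 23 apoptosis genes and p53 targets other than these, Pmaip1 (Noxa) was the 1 called, at 2.15 ± 0.47 (limma adjusted p = 0.0174). Pmaip1 lost its call without any normal array (limma adjusted p = 0.0518 to 0.0673).

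Metabolic and stress genes showed few calls. None of 26 genes of cholesterol and fatty acid synthesis passed by limma (median 0.24), with the lipogenic factor Srebf1 at -0.02 ± 0.22 and fatty acid synthase (Fasn) at 0.33 ± 0.35. Of 20 genes of the unfolded protein and integrated stress response, Sesn2 (0.64 ± 0.18, limma adjusted p = 0.048) and Dnajc3 (-0.97 ± 0.23, limma adjusted p = 0.0234) passed in opposite directions, and the median was -0.11. Sesn2 lost its call without any normal array, tumor B or C, any normal array in Matrigel or any tumor array in Matrigel (limma adjusted p = 0.0525 to 0.159). Dnajc3 lost its call without any normal array or tumor B or C (limma adjusted p = 0.0564 to 0.093). Of 26 glutathione and antioxidant genes 1 was higher and 2 lower, beside 3.66% and 5.0% of all genes. Gpx3, the secreted glutathione peroxidase, was at -2.17, -2.27 and -2.12 in tumor and 2.00, 1.49 and 2.30 in normal organoids (-4.11 ± 0.41, limma adjusted p = 0.00013). The glutathione transferases Gstm2 and Gsta4 moved apart, at -1.72 ± 0.30 and 1.51 ± 0.24 (limma adjusted p = 0.00458 and 0.00273).

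Of 27 genes of FGF, EGF and ERK signalling 1 was higher and 2 lower, beside 3.66% and 5.0% of all genes. Without tumor A 4 were higher, and without any normal array, tumor B or tumor C none was called by limma. Hbegf, an EGF receptor ligand, rose by 1.79 ± 0.41 (limma adjusted p = 0.0208), and Fgfr2, the epithelial receptor for FGFs, was at -1.54, -2.12 and -1.54 in tumor and -0.81, -0.86 and -0.43 in normal organoids (-1.03 ± 0.27, limma adjusted p = 0.0367). The third call was Spred1, an ERK inhibitor, at -0.87 ± 0.22 (limma adjusted p = 0.0315). The list's median was -0.11. Hbegf lost its call without any normal array or tumor B or C (limma adjusted p = 0.0547 to 0.0904). Fgfr2 lost its call without any normal array, tumor B or C, the normal B array in Matrigel or the tumor A array in Matrigel (limma adjusted p = 0.05 to 0.154). Spred1 lost its call without any normal array, tumor B or C or the normal B array in Matrigel (limma adjusted p = 0.0513 to 0.112).

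Of 28 Wnt and Notch genes 5 were lower and 0 higher, beside 5.0% and 3.66% of all genes. The count of lower genes was 3 without any normal array or tumor C, and 1 with normexp background correction. The median was -0.56, and -0.36 without tumor A, when 2 were higher. Heyl, a Notch target, was at -3.68 ± 0.42 (limma adjusted p = 0.000327), the Notch ligand Dll4, best known from vessels, at -2.82 ± 0.30 (limma adjusted p = 0.000215) and Wnt5a, a ligand of the non-canonical Wnt pathway, at -1.90 ± 0.34 (limma adjusted p = 0.00579). The Notch ligand Dll1 was at -0.68 ± 0.17 and Dkk3, of the Dickkopf family, at -1.15 ± 0.28 (limma adjusted p = 0.0346 and 0.0308). Dll1 lost its call without any normal array, tumor A or C or the normal B array in Matrigel (limma adjusted p = 0.0594 to 0.129). Dkk3 lost its call without any normal array or tumor A or C (limma adjusted p = 0.0517 to 0.114). Over the alternatives Wnt5a was as small as -0.055, and its call was lost with normexp background correction and with slide as a block.

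Of 31 genes of TGF-beta, BMP and IGF signalling 1 was higher and 4 lower, beside 3.66% and 5.0% of all genes. Without tumor A 5 were higher, without any normal array, tumor B or tumor C none was, and without normal B, normal C or tumor B 2 were lower. The median was 0.01, and -0.34 with slide as a block. Igfbp3, an IGF-binding protein, was at -0.86, 0.91 and -0.61 in tumor and 1.87, 2.25 and 2.54 in normal organoids (-2.41 ± 0.46, limma adjusted p = 0.00832) and Inhbb, the activin B subunit, at -0.95 ± 0.17 (limma adjusted p = 0.00504). Igfbp4 rose by 1.88 ± 0.46 while Igfbp6 was at -2.48 ± 0.65 (limma adjusted p = 0.0289 and 0.0396), and Id4, a BMP target and inhibitor of helix-loop-helix factors, was at -2.83 ± 0.66 (limma adjusted p = 0.024). Igfbp4 lost its call without any normal array or tumor B or C (limma adjusted p = 0.0516 to 0.107). Igfbp6 lost its call without normal B or C, any tumor array or the tumor B array in Matrigel (limma adjusted p = 0.054 to 0.153). Id4 lost its call without any normal array or tumor A or B (limma adjusted p = 0.0555 to 0.0887).

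Some of the largest differences lay in genes outside the lists. Lhx5, a homeobox factor of the developing brain, was at -0.99, -0.26 and 0.24 in tumor A, B and C and at -5.13, -4.87 and -6.26 in the normal arrays (5.09 ± 0.48, limma adjusted p = 8.85e-05). Slc6a4, the serotonin transporter, was at -1.69, -0.85 and -0.45 in tumor organoids, not well above background on any normal array, and at least 38.9-fold higher (limma adjusted p = 1.58e-05). Msln (mesothelin), a surface protein of many carcinomas, rose by 4.45 ± 0.64 (limma adjusted p = 0.00159) and Ica1l by 4.21 ± 0.51 (limma adjusted p = 0.000489). Bst1, an ectoenzyme of bone marrow stroma, rose by 3.65 ± 0.90 (limma adjusted p = 0.0308). Bst1 lost its call without any normal array or tumor B or C (limma adjusted p = 0.0727 to 0.126). In all, 44 genes well above background on every tumor array and on no normal array were called higher. Choosing genes this way largely sets the direction of their difference, so the count only describes the calls.

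Dmbt1, a mucosal scavenger receptor, had the largest fall of the genes well above background on all 6 arrays: it was at -3.71, -5.32 and -5.72 in tumor and 2.02, 2.62 and 3.66 in normal organoids (-7.68 ± 0.57, limma adjusted p = 3.32e-05). Ptn, the growth factor pleiotrophin, was at -2.52, -3.51 and -5.36 and 4.10, 3.57 and 3.63 (-7.56 ± 0.73, limma adjusted p = 0.000115). Both genes thus went from above the 75th percentile of every normal array to far under it on every tumor array. Tspan8, a tetraspanin of luminal cells, was at 2.12, 0.50 and -1.67 and 5.48, 5.14 and 5.12 (-4.93 ± 0.77, limma adjusted p = 0.00246), lowest in tumor C. Fgg, a fibrinogen chain, was at -4.72 ± 0.63 (limma adjusted p = 0.000916) and the imprinted gene Mest at -4.67 ± 0.34 (limma adjusted p = 3.24e-05). Robo4, Ramp2 and Cd93, known from endothelium, were at -4.81 ± 0.25, -5.07 ± 0.38 and -5.14 ± 0.60 (limma adjusted p = 8.3e-06, 3.32e-05 and 0.000409), beside the endothelial markers above. S1pr1, the receptor for sphingosine-1-phosphate on endothelium and lymphocytes, was at least 10.7-fold lower and Gimap1, of lymphocytes, at least 18.8-fold (limma adjusted p = 3.47e-05 and 3.47e-05). Slc5a5, the iodide carrier of thyroid and lactating gland, was at least 12.8-fold lower (limma adjusted p = 0.000927). In all, 137 genes well above background on every normal array and on no tumor array were called lower, a count to which the same limit applies as to the 44 higher genes.

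The same tissues in Matrigel gave the nearest comparison, from the same tumor mice and from normal mice A, B and D. There 9460 of the 18274 genes were called, beside 1582 in collagen I, so a call in Matrigel was common. Tumor arrays in Matrigel were the dimmest: their 75th percentile was 384 to 570, beside 672 to 1101 for normal arrays in Matrigel. On them 56.6 to 58.6% of spots were well above background, beside 63.3 to 69.0%. What this adds to the Matrigel calls and to the differences between gels was not tested. Of the 1582, 1356 were called in both gels in the same direction and 13 in opposite directions. The tests of the difference between the gels called 488 genes, 2.67% of those tested, with 4770 at an unadjusted p under 0.05 by limma. This count was unstable: it was 10 with normexp background correction, 35 with mouse letter as a replicate block, and between 33 (without normal B) and 2071 (without the normal A array in Matrigel) with 1 array left out. It was 1349 and 1698 with slide as a fixed and a random block, 1695 with mouse, shared by arrays of both gels, as a random block, and 3439 with array weights.

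Contractile, hormone-sensing and endothelial genes had medians under 0 in both gels, -1.21, -2.71 and -3.95 in Matrigel beside -1.56, -2.70 and -4.17 in collagen I. Leukocyte markers, at -1.65 in collagen I, had a median of -0.15 in Matrigel, where 2 were higher and 2 lower, and 2 differed between the gels by the test. Hypoxia and glycolysis genes had a median of 1.53 in Matrigel and 1.37 in collagen I. Stress response genes had 1.16 in Matrigel and -0.11 in collagen I, and 6 of the 20 differed between the gels by the test. Among them Trib3, a pseudokinase induced by that response, was at -0.25 ± 0.19 in collagen I and 2.37 ± 0.19 in Matrigel. Comp, a cartilage matrix protein, was at -2.04, -3.20 and -2.48 in tumor and 2.05, 1.89 and 1.16 in normal organoids in collagen I, -4.28 ± 0.38 in all, and differed by 0.71 ± 0.38 in Matrigel. Csf3, the granulocyte growth factor, differed by 0.88 ± 0.23 in collagen I and 5.14 ± 0.23 in Matrigel. Csf3 lost its call without any normal array, tumor B or C, the normal A or B array in Matrigel or the tumor A or B array in Matrigel (limma adjusted p = 0.0525 to 0.162). Gucy1a1 and Gucy1b1, both subunits of the nitric oxide receptor guanylate cyclase, fell in collagen I by 2.26 ± 0.25 and 2.09 ± 0.18 on the log2 scale and were at -5.59 ± 0.25 and -5.77 ± 0.18 in Matrigel.

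**Figure D5:**
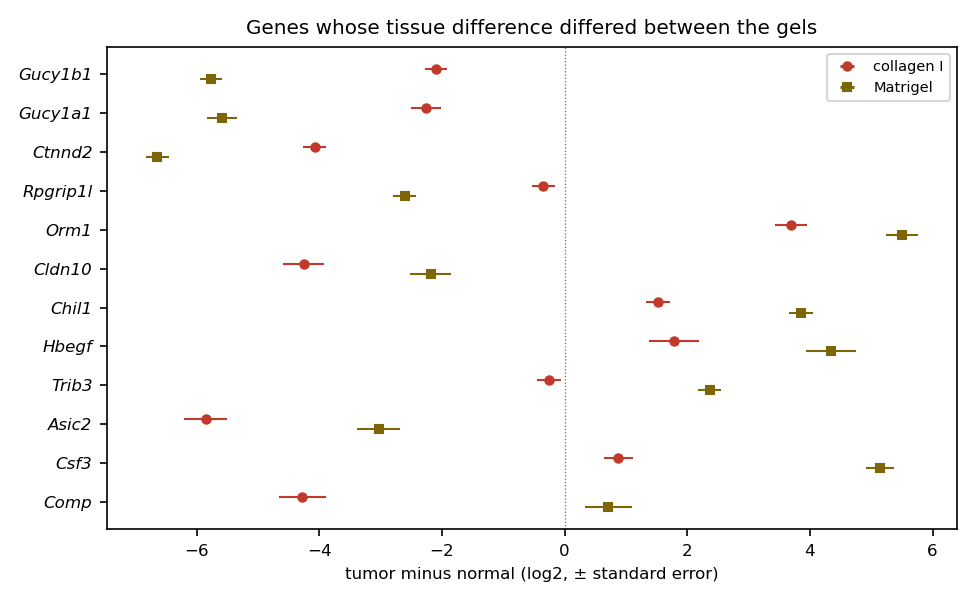
Difference between tumor and normal organoids (log2 with the standard error of the fit, horizontal axis) in collagen I (red circles) and Matrigel (brown squares) for the 12 named genes whose tissue difference differed between the gels at adjusted p under 0.05. Comp was at -4.28 in collagen I and 0.71 in Matrigel, and Csf3 at 0.88 and 5.14.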

How the data were processed

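RNA of each culture was linearly amplified, labelled with Cy3 and hybridised to single-colour Agilent arrays, per the labels. The authors deposited scanner output with intensity values per spot, background-corrected by Agilent Feature Extraction (9.1 per the submitters' processing notes), and a table of log2 values (normalization not given in the sources used here). Array names date from an older genome build, so genes were named through RefSeq accessions and no array coordinate was used.

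From the deposited processed intensity, levels were computed as log2 values relative to the 75th percentile of the same array. Control and outlier spots were left out. Of 41174 probes, 26606 were kept, those that some group had well above background on each of its arrays, and the probe with the highest mean stood for a gene. The 12 arrays of batch 2, in 4 groups of 3 (for normal mouse B in Matrigel the batch 2 array, where the authors' table averages arrays of both batches), entered 1 fit in limma 3.58.1 (R 4.3.3), with Benjamini-Hochberg adjustment and a threshold of 0.05. Simulated data had 100 genes changed at each size among 18239 genes. Of those changed by 2 log2 units 65 were recovered, and of those changed by 1 log2 unit 27, with 7 false calls. The simulated arrays had the same spread in every group and no slide effect, unlike the real arrays, so these rates are only a rough guide. Within a group each sample is a different mouse, per the labels, while the tumor mice and normal mice A and B were used in both gels. The number of arrays limits the precision.

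Named genes were the 15 per direction with the largest difference among those measured on all arrays and not overlapping, up to 10 per direction with the largest bound, up to 6 called members of each list (2 of highest level where none was called), 12 fixed lineage, matrix and proliferation genes, and up to 8 with the lowest adjusted p for a difference between gels. Other genes named are said to be so or are given as list members without a call. The members and lists were chosen with earlier results of these data known. Alternatives were quantile normalization, normexp background correction, the authors' values, other filters and probe rules, the collagen I arrays alone, blocks by mouse letter, slide or mouse, other variance settings, array weights, and each array left out in turn.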

Additional observations from a re-analysis of the deposited data

Results flagged for a closer look

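For 12 named genes the tumor minus normal difference in collagen I differed from that in Matrigel by the interaction test of the fit (adjusted p under 0.05 by limma). A positive value means that the difference was higher in collagen I. The largest was Comp at -4.99 ± 0.54 (limma adjusted p = 0.00589), then Csf3 at -4.27 ± 0.33, Gucy1b1 at 3.67 ± 0.26 and Gucy1a1 at 3.32 ± 0.35. Asic2, an acid-sensing channel, was at -2.82 ± 0.50, Trib3 at -2.62 ± 0.27, Ctnnd2 (delta-catenin) at 2.57 ± 0.26 and Hbegf at -2.56 ± 0.57. Chil1, a chitinase-like protein, was at -2.33 ± 0.28, Rpgrip1l, of the cilium base, at 2.26 ± 0.26, Cldn10 at -2.07 ± 0.48 and Orm1 at -1.81 ± 0.37. Comp, Csf3, Trib3, Gucy1a1, Gucy1b1, Ctnnd2, Rpgrip1l and Chil1 kept this call with any of the 12 arrays left out, Asic2 with 7 of them, Orm1 with 5, Hbegf with 4 and Cldn10 with 2. With normexp background correction Gucy1b1, Gucy1a1 and Ctnnd2 were at -0.03, -0.34 and -0.59, so their direction turned. Rpgrip1l lost the call there and with probes averaged or filtered on all arrays, and was as low as 0.05, Ctnnd2 lost it with probes averaged, and Chil1 lost it with normexp. Orm1, Asic2, Hbegf and Cldn10 lost it with normexp and with the replicate block by mouse letter, among other settings. Comp, Csf3 and Trib3 kept it in all settings run.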

How the results depend on the processing

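Of 754 list medians over all alternatives, 732 moved by less than the spread between replicates, taken from the group with the larger spread. Some settings could hardly move a median: leaving out a Matrigel array changes a collagen I difference only through the choice of probes. The count therefore says little of how robust the medians are. The 1582 calls in collagen I became 751 with normexp background correction (428 higher and 323 lower, 57.0% higher beside 42.2%, with a median over all genes of 0.16), 953 with probes well above background on all arrays (408 lower, 57.2% higher) and 193 with slide as a fixed block (61 higher and 132 lower, 31.6% higher). Array weights gave 1032 higher. With 1 array left out, calls ranged from 756 to 1903, higher ones from 267 to 808 and lower ones from 489 to 1095, and 30.2% were higher without normal A. The replicate block by mouse letter gave 1548 calls, although the letters name different mice in each tissue (same-letter deviations correlated at 0.08, -0.30 and 0.04). The 488 differences between gels became 211 with quantile normalization, 10 with normexp, 143 with the authors' values, 96 with the filter at 1 array, 35 with the replicate block, 1349 and 1698 with slide as a fixed and random block, 1695 with mouse as a random block, 1012 with a trended robust prior, 3439 with array weights, and 33 to 2071 with 1 array left out. The medians of luminal identity and luminal markers were both -0.037 with quantile normalization and both -0.030 with the authors' values. With normexp the hormone-sensing, contractile, endothelial, leukocyte and adipocyte medians were -1.51, -0.87, -1.82, -0.62 and -0.64, and the genes H2-Aa and Foxc2 were at 0.11 and 0.021, their direction turned. With the filter at 1 array the FGF, EGF and ERK median was -0.38 and the adipocyte median 0.22. With the filter on all arrays the hormone-sensing, contractile, endothelial and adipocyte medians were -2.13, -0.86, -2.64 and -2.73. Averaging probes gave -2.38 for contractile genes and -2.40 for basal markers, and slide as a block -0.52 for the cell cycle. With 1 array left out the FGF, EGF and ERK median ran from -0.41 to -0.020 and the adipocyte median from -2.08 to -0.61. Causes of these shifts were not tested. Where every array of a group was near background, its level is only a bound, and an "at least" fold holds for the main processing alone. Over the alternatives Tie1, S1pr1 and Slc5a5 had differences as small as -1.74, -1.19 and -1.24, and each lost its call with normexp. Col14a1 and Slc6a4 had differences as small as -3.78 and 3.12 and kept their call in every setting that tested them.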
